A study of Mus musculus with 4 samples.

Results

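The 35 genes described here encode lysosomal enzymes and lysosomal membrane proteins, out of 28692 genes counted in sorted myeloid cells of the mouse colon. They form a list of known lysosomal genes that comprised 12 proteases, 9 enzymes that cut sugar chains, 7 genes for lipid-handling proteins and progranulin, 5 membrane proteins and 2 acid phosphatases. Each gene was followed over cells ranked by 2 other genes: Ly6c2, which marks monocytes, and C1qa, a complement gene of resident macrophages. The second comparison was between mice given diesel exhaust particles and their controls.

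Cells came from the colon lamina propria of 4 male C57/Bl6N mice. DEP 11 and DEP 13 received 12 µg diesel exhaust particles (DEP) in 200 µL phosphate-buffered saline (PBS) by gavage, 5 days per week for about 6 months, and PBS 2 and PBS 3 received PBS alone. The sort gate asked for CD11b together with Ly6C or CD64, all mice were processed side by side, and each mouse gave 1 library of 3′ single cell RNA-seq, in which molecules are counted by unique molecular identifiers (UMIs). Of 6954 barcodes, 4771 held at least 1000 UMIs (DEP 11 had 1218, DEP 13 675, PBS 2 1296 and PBS 3 1582), with median depths of 5328 to 7116 UMIs per barcode and totals of 4357153 to 10063287 UMIs per mouse. UMIs are counted at the transcript end, so levels were not divided by gene length.

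Ly6c2-high cells were those with at least 5 Ly6c2 UMIs and under 5 C1qa UMIs per 10000 UMIs, and C1qa-high cells the reverse. There were 125 Ly6c2-high cells (DEP 11 held 55, DEP 13 22, PBS 2 19 and PBS 3 29) and 3865 C1qa-high cells (939, 537, 1076 and 1313). A list of 10 other monocyte markers summed to 74.9 to 83.7 UMIs per 10000 over the 4 mice in Ly6c2-high cells and to 12.8 to 16.8 in C1qa-high cells. A list of 12 resident macrophage markers summed to 109 to 179 and 377 to 473, so both markers sorted the cells as their names say. However, C1qa was also counted at 14.4 UMIs per 10000 in plasma cell barcodes, and at 14.8 in the 1614 barcodes under 500 UMIs, both above the limit of 5. The barcodes under 500 UMIs served as a proxy for RNA outside cells. Whether damaged cells were among them was not tested, and a list of 17 genes induced by tissue dissociation summed there to 211 to 237 UMIs per 10000, against 110.3 to 169 in the 4771 barcodes.

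Therefore every comparison was repeated with a C1qa limit of 20 and without the 192 barcodes that carried lymphocyte or plasma cell genes, settings chosen after the data had been seen. This second split made the C1qa-high class stricter but let more cells, with more C1qa, into the Ly6c2-high class, whose C1qa level over the mice was 2.65 to 3.36 UMIs per 10000 at the limit of 5 and 6.38 to 10.3 at the limit of 20. The second split held 529 Ly6c2-high cells (147, 60, 160 and 162 by mouse in the same order) and 2724 C1qa-high cells (678, 392, 781 and 873). Here the monocyte list summed to 70.3 to 84.8 against 7.21 to 10.4, and the macrophage list to 110.3 to 174 against 463 to 540 UMIs per 10000. Cells near a limit were common, since 492 had a C1qa level from 15 to under 25.

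Lysosomes are acidic organelles in which macrophages break down what they engulf, together with their own worn-out parts. Proteases, glycosidases, lipases and phosphatases work inside the lumen, membrane proteins coat and protect the inner face of the vesicle, and a proton pump, the V-ATPase, keeps the lumen acidic. Many genes of this system carry the E-box CACGTG, or its extended form TCACGTGA, near their start, the letters read by transcription factors of the TFEB and TFE3 family. Colonic macrophages arise from blood monocytes that lose Ly6C and gain complement and scavenging genes as they settle in the gut wall.

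Promoter sequences, running from 250 bases before to 50 after the RefSeq start on GRCm38.p6, were at hand for 31 of the 35 genes, all except Ctsh, Npc1, Asah1 and Ctsb. The letters CACGTG, the same on both strands, stood in 11 of the 31 promoters (35.5%) and in 2187 of all 27025 promoters (8.09%). TCACGTGA, which contains CACGTG, stood in 3 of the 31 (9.68%; Ctsa, Ctsd and Gla) and in 1.12% (304) of all. Lamp1 held 4 matches to CACGTG, Ctsa, Ctsd and Gla 2 each, and Ctsf, Ctsl, Gaa, Glb1, Lgmn, Naglu and Sgsh 1 each. A match is a description of the letters only. The windows below show 1 match for 4 genes that were higher in C1qa-high cells and for 3 that passed in neither split of the cells. For Ctsf, 1 of the 4, the difference is a description only, as given below. Capitals mark CACGTG.
Lgmn, chr12:102439124-102439153, minus strand: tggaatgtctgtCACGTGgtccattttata
Ctsf, chr19:4855074-4855103, plus strand: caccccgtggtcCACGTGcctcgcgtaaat
Ctsl, chr13:64370739-64370768, minus strand: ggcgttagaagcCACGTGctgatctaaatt
Ctsa, chr2:164833749-164833778, plus strand: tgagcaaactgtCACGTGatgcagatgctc
Lamp1, chr8:13159121-13159150, plus strand: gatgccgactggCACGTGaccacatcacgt
Ctsd, chr7:142387908-142387937, minus strand: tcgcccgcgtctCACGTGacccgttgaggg
Gla, chrX:134601215-134601244, minus strand: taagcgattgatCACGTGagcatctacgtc
Counted from the RefSeq start, the first base of the motif stood at −49 for Lgmn, −79 for Ctsf, −236 for Ctsl, −12 for Ctsa, −28 for Lamp1, −98 for Ctsd and −227 for Gla. In the GENCODE vM21 gene models of this build, which can start further upstream, the windows of Ctsf, Lamp1 and Gla lie outside the gene, those of Ctsa, Ctsd and Ctsl overlap an exon, and that of Lgmn lies in an intron.

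The lysosomal genes were abundant. Their summed share of all UMIs was 2.34% (DEP 11), 2.15% (DEP 13), 2.33% (PBS 2) and 2.14% (PBS 3). Proteases held 56.6% of these UMIs, lipid-handling proteins and progranulin 29.3%, membrane proteins 7.95%, sugar-chain enzymes 4.40% and phosphatases 1.75%. Ctss, cathepsin S, which trims the invariant chain in antigen presentation, led with 4193 UMIs per 1000000 (CPM), followed by Psap, the precursor of the saposins that help degrade sphingolipids, with 4120 CPM. Next came the cysteine cathepsins Ctsc (1916 CPM) and Ctsb (1851 CPM). These 4 genes made up 53.7% of the members' UMIs and the first 10, down to the macrophage glycoprotein gene Cd68 (560.3 CPM), 82.3%. At the other end, Sgsh, a heparan sulphate sulphatase, had 173 UMIs in all cells and Ctsk, the collagen-cutting cathepsin of osteoclasts, had 7.

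The share of UMIs taken by the lysosomal genes rose with C1qa. Without the lymphoid barcodes, cells with C1qa from 5 to under 20 per 10000 UMIs had shares of 1.84%, 1.66%, 1.91% and 1.74% in the mice in the same order. From 20 to under 50 the shares were 2.26%, 2.29%, 2.24% and 2.28%, and at 50 or more 2.86%, 2.72%, 2.68% and 2.66%. The 3 ranges did not overlap, and each mouse rose at both steps. Below a C1qa level of 5, where C1qa was above 0, the shares were 1.86%, 1.67%, 1.89% and 1.80%, similar to the range of 5 to under 20. Lysosomal genes also took 0.965 to 1.22% of UMIs in barcodes under 500 UMIs and 0.851 to 1.14% in lymphoid barcodes.

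**Figure D1:**
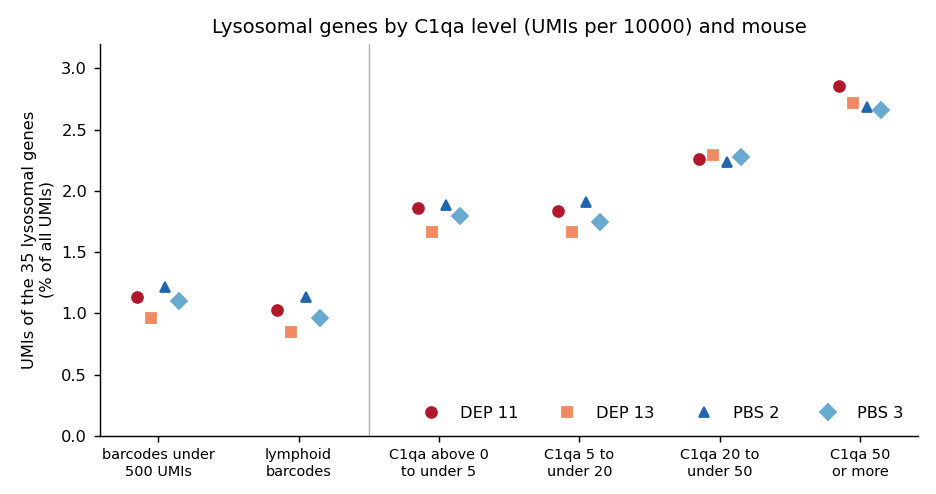
UMIs of the 35 lysosomal genes as a percentage of all UMIs (vertical axis), for barcodes under 500 UMIs, lymphoid barcodes and cells by C1qa level without lymphoid barcodes, 1 point per mouse. The 4 mice lie between 1.66% and 1.91% at a C1qa level from 5 to under 20 and between 2.66% and 2.86% at 50 or more, with barcodes under 500 UMIs lower than both.

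To ask which lysosomal genes differ between Ly6c2-high and C1qa-high cells of the same mice, UMIs were summed per mouse and class and fitted across all genes by edgeR's quasi-likelihood test with the mouse as a block, leaving out Ly6c2 and C1qa. Of 33 lysosomal genes that passed the filter on low counts (all except Ctsk and Sgsh), 19 were higher in C1qa-high cells at a false discovery rate (FDR) of 5% and 0 were lower. Over all 6735 genes tested, 7.08% were higher and 5.70% lower. The shares of all genes, here and below, were not matched to the abundance of the lysosomal genes. The median log2 fold change was 0.53 over the lysosomal genes and 0.11 over all genes. In the second split 23 were higher, with 16.2% of 6865 genes higher, and 1 was lower, with 18.3% lower. The medians there were 0.50 and 0.01. The 23 included the 19. Ctsb, Ctsc, Ctsl, Ctss, Ctsz, Cd63, Lgmn and Acp5 were called higher in all 24 settings of this comparison. Acp2 was too, but its calls at the limit of 5 carry no weight, as given below. In single mice, 21 of the 33 were higher in C1qa-high cells in all 4 (15.5% of all genes), and in 15 the 4 values of one class lay above the 4 of the other (9.99% of all genes). With the second split these numbers were 25 (22.9%) and 21 (13.8%). The filter was set over both classes together. Within Ly6c2-high cells 29 of the 33 passed it, of which 16 were among the 19, and Acp2, Ctsf, Gaa and Naglu passed only with the C1qa-high cells, where they are high, so that the calls of Acp2, Ctsf and Naglu carry no weight at the limit of 5. In the second split 30 of 33 passed within Ly6c2-high cells, of which 20 were called higher, and Ctsf, Gaa and Naglu did not, so their values are given as a description. The 8 sums come from 4 mice, and the small p-values of this fit borrow the estimate of spread from all genes.

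Cd63, Acp5 and Lgmn differed by several fold. At the limit of 5 the Ly6c2-high levels of Cd63 rest on 30, 7, 18 and 16 UMIs and those of Acp5 on 18, 6, 3 and 6, by mouse in the same order. Cd63 (ENSMUSG00000025351, chr10:128900989-128912822), a tetraspanin of late endosomes and lysosomes, stood at 124, 70.2, 208 and 153 CPM in Ly6c2-high cells of DEP 11, DEP 13, PBS 2 and PBS 3. In C1qa-high cells it reached 944, 1009, 819 and 955.4 CPM. The difference was 2.92 on the log2 scale (SE 0.15, FDR 2.0e-85, n = 4 mice), and 2.94 (SE 0.10, FDR 1.7e-18) in the second split. No C1qa-high value came near a Ly6c2-high value. Acp5 (ENSMUSG00000001348, chr9:22126727-22135711), tartrate-resistant acid phosphatase, stood at 74.5, 60.2, 34.8 and 57.4 CPM against 531, 368, 362 and 328 CPM. Its log2 fold change was 2.92 (SE 0.20, FDR 1.1e-45), and 2.495 (SE 0.11, FDR 3.2e-16) in the second split. Lgmn (ENSMUSG00000021190, chr12:102394084-102439813), the asparaginyl endopeptidase that processes other lysosomal proteases, stood at 571, 471, 591 and 373 CPM against 1557, 1574, 1721 and 1399 CPM. Its log2 fold change was 1.76 (SE 0.11, FDR 2.1e-57), and 1.75 (SE 0.06, FDR 5.5e-18) in the second split. All 3 genes were separated in every mouse.

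For these 3 genes, the Ly6c2-high level was no higher than that in barcodes under 500 UMIs. Those barcodes held 339 CPM of Cd63, 134 CPM of Acp5 and 649 CPM of Lgmn, against 151, 86.6 and 565 CPM in the Ly6c2-high cells of the second split. The same order was seen for 16 of the 35 genes in the second split, among them Ctsl, Tpp1, Acp2, Gaa, Gusb, Ppt1, Scarb2 and Naglu, while in C1qa-high cells it was seen for 4 (Npc1, Gla, Neu1 and Sgsh). Ctss (1526 CPM in barcodes under 500 UMIs and 3510 CPM in Ly6c2-high cells) and Psap (2137 and 4240.0 CPM) stood above those barcodes. How much of the Ly6c2-high levels came from RNA outside cells was not tested.

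**Figure D2:**
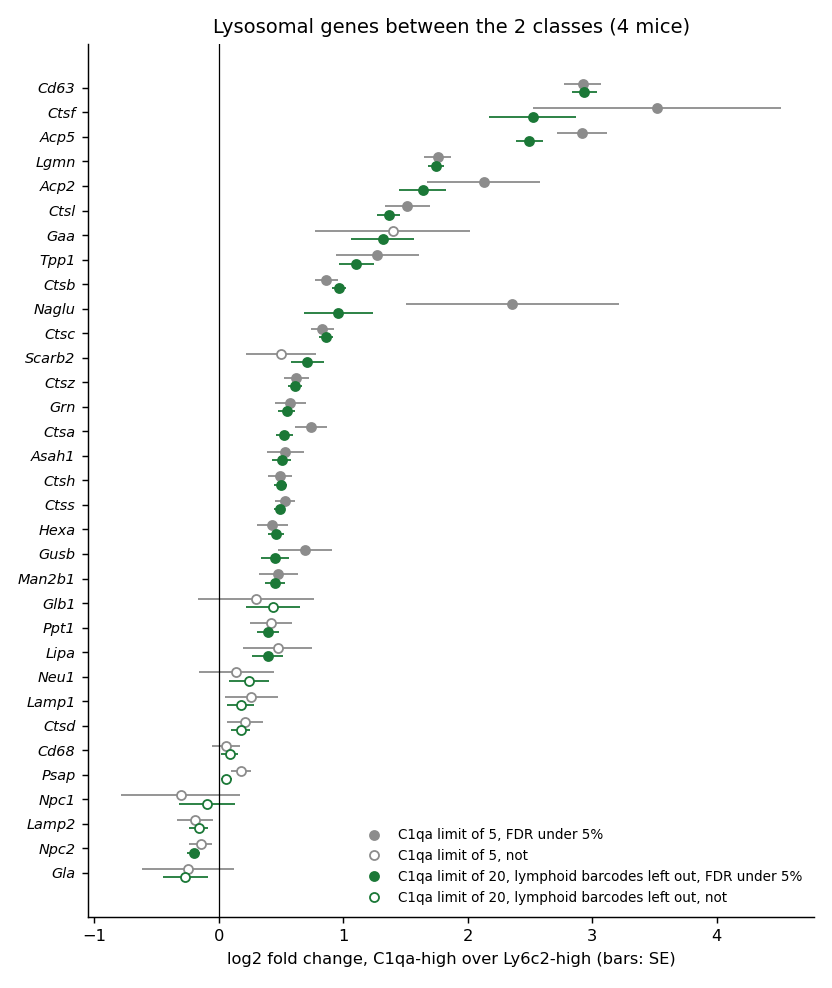
log2 fold change of 33 lysosomal genes, C1qa-high over Ly6c2-high cells (horizontal axis), with the SE as bars, from fits to 4 mice at a C1qa limit of 5 (grey) and of 20 without lymphoid barcodes (green), where filled points passed an FDR of 5%. Cd63 lies at 2.92 and 2.94, most proteases to the right of 0, and Psap, Cd68, Lamp1, Lamp2, Ctsd and Npc2 within 0.30 of it.

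Among 11 proteases tested, Ctsa, Ctsb, Ctsc, Ctsh, Ctsl, Ctss, Ctsz, Lgmn and Tpp1 were called higher in C1qa-high cells in both splits. Over all genes, 7.08% were higher at the limit of 5 and 16.2% in the second split. Ctsf was also called, but passed the filter only through its C1qa-high sums, so its calls carry no weight. Ctsb stood at 1395, 1063, 1182 and 1118 CPM in Ly6c2-high and at 1949, 2095, 2087 and 1836 CPM in C1qa-high cells, a log2 fold change of 0.86 (SE 0.09, FDR 9.4e-19). Ctsc, dipeptidyl peptidase 1, which activates granule serine proteases, differed by 0.83 (SE 0.09, FDR 1.9e-17). Ctsl differed by 1.51 (SE 0.18, FDR 4.0e-15), from 95.2, 130.3, 151 and 86.03 CPM to 272, 345, 298 and 255 CPM. Ctss, the most abundant of all, rose from 3588, 3058, 3267 and 3393 CPM to 4643, 4232, 4182 and 4384 CPM, a log2 fold change of 0.53 (SE 0.08, FDR 4.7e-09). In all 4 of these cathepsins the classes did not overlap, and Ctsc came closest, with 860.3 to 1726 CPM in Ly6c2-high and 1863 to 2139 CPM in C1qa-high cells. Ctsz (0.62), Ctsh (0.49), the serine carboxypeptidase Ctsa (0.74) and the tripeptidyl peptidase Tpp1 (1.27) were also higher on the log2 scale.

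Ctsf, a further cysteine cathepsin, had 1 UMI in all Ly6c2-high cells at the limit of 5, so its values were read from the second split. There it stood at 4.56, 0, 4.56 and 4.43 CPM against 28.4, 23.0, 20.7 and 20.2 CPM, 10 UMIs against 462, a description only, since it passed the filter through its C1qa-high sums. Ctsd, cathepsin D, the main aspartic protease of lysosomes, passed in neither split: 306, 210.5, 324 and 172 CPM in Ly6c2-high and 274, 239, 341 and 249 CPM in C1qa-high cells overlapped.

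Of the 5 membrane proteins, Cd63 alone was called at the limit of 5. Lamp1 and Lamp2, the main glycoproteins of the lysosomal membrane, overlapped between the classes. Lamp1 had 141, 110.3, 92.7 and 66.9 CPM in Ly6c2-high and 123, 124, 126 and 106 CPM in C1qa-high cells. Lamp2 had 298, 381, 220.1 and 258 CPM against 220.5, 258, 228 and 229 CPM. Cd68, often used to stain macrophages, had 604, 491, 521 and 746 CPM against 580.5, 527, 588 and 554 CPM. Scarb2, the receptor that carries glucocerebrosidase to the lysosome, was called only in the second split, with a log2 fold change of 0.71 (SE 0.13, FDR 1.0e-04). The classes thus overlapped for Lamp1, Lamp2 and Cd68 and stood apart for Cd63.

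Lipid-handling proteins were mixed. Psap, the second most abundant gene, had 4226, 3770.0, 4425 and 3690.0 CPM in Ly6c2-high and 4538, 3819, 4456 and 3732 CPM in C1qa-high cells, and was not called in either split (FDR 0.16 and 0.30 by edgeR). Npc2, which hands cholesterol on inside the lumen, was the 1 gene called lower in the second split, with a log2 fold change of −0.20 (SE 0.05, FDR 0.0045). Its values there were 1817, 1401, 1766 and 1681 CPM in Ly6c2-high and 1500.0, 1419, 1392 and 1429 CPM in C1qa-high cells, lower in 3 of 4 mice. The call was lost without PBS 2 (FDR 0.10) and at a C1qa limit of 20 with lymphoid barcodes (FDR 0.11). At the limit of 5 Npc2 was not called (FDR 0.36 by edgeR), except without DEP 13 (FDR 0.041). Its membrane partner Npc1, at 16.0 to 22.6 CPM in C1qa-high cells, was called in neither split. Asah1, acid ceramidase (log2 fold change 0.53), and Grn, progranulin (0.58), were higher in both splits. Lipa, lysosomal acid lipase, and Ppt1, which removes palmitate from proteins, were called only in the second split, with log2 fold changes of 0.39 (SE 0.12) and 0.40 (SE 0.09). The call of Lipa was lost without DEP 11 (FDR 0.061) and without PBS 2 (FDR 0.052).

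Of 8 sugar-chain enzymes tested, Man2b1 (α-mannosidase, log2 fold change 0.48, SE 0.15), Gusb (β-glucuronidase, 0.69, SE 0.22) and Hexa (β-hexosaminidase α, 0.43, SE 0.13) were called higher in both splits. Over all genes, 7.08% were higher at the limit of 5 and 16.2% in the second split. Naglu was also called in both splits and Gaa in the second. Both genes passed the filter only through their C1qa-high sums, so their values are given as a description. Gaa, acid α-glucosidase, had 9.12, 7.13, 13.7 and 8.86 CPM in the Ly6c2-high cells of the second split, on 26 UMIs, against 28.2, 23.0, 29.7 and 18.9 CPM in C1qa-high cells. Naglu, an enzyme of heparan sulphate breakdown, had 2 UMIs in Ly6c2-high cells at the limit of 5. With the limit of 20 it had 7.603, 7.13, 12.5 and 13.3 CPM against 21.7, 12.4, 27.2 and 16.1 CPM, with values that overlapped, and its call was lost without DEP 11 (FDR 0.071) and without PBS 2 (FDR 0.096). Gla, Glb1 and Neu1 passed in neither split. The second phosphatase, Acp2, had 7 UMIs in Ly6c2-high cells at the limit of 5. With the limit of 20 it rose from 28.9, 17.8, 14.8 and 16.2 CPM to 63.2, 62.0, 59.7 and 53.4 CPM, a log2 fold change of 1.64 (SE 0.19, FDR 7.9e-08). At the limit of 5, leaving out 1 mouse ended the call of Tpp1, Hexa and Naglu (DEP 11), of Gusb, Man2b1, Hexa and Naglu (DEP 13), of Naglu (PBS 2) or of Man2b1 and Hexa (PBS 3).

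These levels are shares of a cell's UMIs, and C1qa-high cells held more UMIs, with a median of 7101 against 4809 in the second split. Per cell, every lysosomal gene with a UMI in both classes of the second split was counted more often in C1qa-high cells. The ratio of mean UMIs per cell ran from 1.36 for Npc2 to 12.6 for Cd63. Psap rose from 19.7 to 32.1 UMIs per cell, Cd68 from 2.65 to 4.46 and Lgmn from 2.59 to 13.6. More RNA in a cell and deeper capture of it cannot be told apart here.

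Genes that were higher in C1qa-high cells were found with and without CACGTG. By the second split 6 of 10 tested lysosomal genes with the motif were higher in C1qa-high cells and 14 of 19 without it (16.2% of all genes). At the limit of 5 the numbers were 5 of 10 and 11 of 19 (7.08% of all genes). The calls with the motif include Ctsf and Naglu, and Gaa in the second split, which passed the filter only through their C1qa-high sums. Those without it include Acp2, which did so at the limit of 5. The other calls with the motif were Ctsa, Ctsl and Lgmn. The median log2 fold changes were 0.74 with and 0.46 without the motif in the second split and 1.07 and 0.50 at the limit of 5. Ctsf, Gaa and Naglu, with few UMIs in Ly6c2-high cells, lie above the medians with the motif and raise them. No direction is therefore read from these medians. No test was made of either difference. Lamp1, with 4 matches, was not called, and Cd63 and Acp5 had 0 in this window.

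The genes also differed in how they climbed over the 3 upper C1qa ranges. Without lymphoid barcodes, 19 of the 35 rose at both steps in all 4 mice, with 5.78% of all genes rising, and 0 fell in all 4 mice, with 8.29% falling. With these barcodes 22 rose (7.10% of all genes) and 0 fell (6.64%). Pooled over mice, Cd63 went from 206 to 786 to 1287 CPM, 6.24 times higher in the top range than in the lowest. Acp5 went from 107 to 313 to 555 CPM (5.20 times) and Lgmn from 736 to 1548 to 1954 CPM (2.66 times). In the pooled values Cd63 and Lgmn gained more CPM at the first step than at the second, and Acp5 gained more at the second. Ctsb rose from 1133 to 1839 to 2472 CPM (2.18 times), Ctsl from 167 to 283 to 341 CPM (2.04 times) and Ctss from 3469 to 4075 to 5105 CPM (1.47 times). Psap (4204, 4171 and 4396 CPM) and Npc2 (1438, 1381 and 1462 CPM) moved little. Gla, α-galactosidase A, was the 1 gene that fell at both steps in 3 mice, from 34.9 to 32.0 to 28.7 CPM pooled, all below its level in barcodes under 500 UMIs (59.4 CPM).

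**Figure D3:**
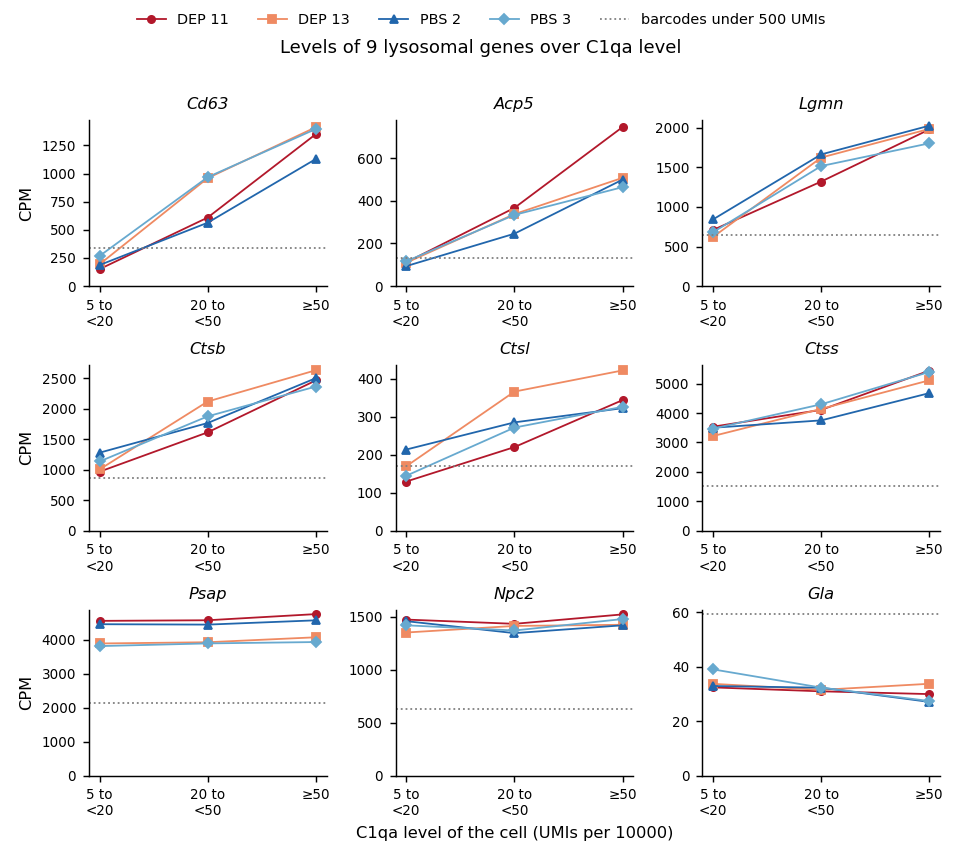
CPM of 9 lysosomal genes (vertical axes) in cells with a C1qa level from 5 to under 20, from 20 to under 50 and of 50 or more UMIs per 10000 (horizontal axes), 1 line per mouse, without lymphoid barcodes, with the pooled level of barcodes under 500 UMIs dotted. Cd63, Acp5, Lgmn, Ctsb, Ctsl and Ctss rise in every mouse, whereas Psap (4171 to 4396 pooled) and Npc2 (1381 to 1462 pooled) stay nearly level.

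Some of these genes varied more between cells of one class than others of a similar level. The C1qa-high cells of the second split were thinned to 2000 UMIs each, and the ratio of variance to mean over cells was taken in each mouse. It is 1 where counts vary by sampling alone, and its excess grows with the mean, so only genes of similar means were set side by side. Ctsb, at a mean of 4.51 UMIs per cell, had ratios of 1.87 to 2.34 over the 4 mice, against 1.44 to 1.81 for Ctsc at 4.48. Cd63, at 2.17 UMIs per cell, had 1.73 to 2.10, against 1.27 to 1.40 for Ctsz at 2.31 and 1.07 to 1.21 for Npc2 at 2.79. Each of these pairs was separated in all mice. Acp5, at 0.852 UMIs per cell, had 1.86 to 1.98, against 1.07 to 1.13 for Hexa at 0.997, and the tenth of cells with most UMIs held 45.8% of its UMIs against 32.5% for Hexa. Ctsd, at 0.596 UMIs per cell, had 1.32 to 2.05, against 1.09 to 1.23 for Man2b1 at 0.585. No test was made of these differences.

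The other question was whether DEP moved these genes. The summed share of the lysosomal genes was 2.25% ± 0.13 (SD, n = 2) in DEP and 2.24% ± 0.13 (SD, n = 2) in PBS mice over all barcodes, with a DEP and a PBS mouse at each end. In C1qa-high cells the shares were 2.46% and 2.29% in DEP 11 and DEP 13, and 2.41% and 2.23% in PBS 2 and PBS 3. In Ly6c2-high cells they were 1.88% and 1.56%, and 1.88% and 1.65%. Exact two-sided permutation tests gave p = 0.667 in all 3, where 2 mice against 2 cannot go below 0.333. The groups overlapped in these 3 sets of cells. At a C1qa level of 50 or more, as given above, both DEP mice lay above both PBS mice, a separation that an exact test of 2 against 2 cannot carry past the threshold.

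Gene by gene, 0 of 33 lysosomal genes tested over all barcodes were called between DEP and PBS, as were 0% of all 6609 genes by edgeR's quasi-likelihood test. 0 lysosomal genes and 171 of all genes had an unadjusted p under 0.05, and DESeq2 called 4 genes and edgeR's likelihood ratio test 8. In C1qa-high cells 0 of 33 lysosomal genes and 0% of 6766 genes were called, with 0 and 210 at an unadjusted p under 0.05 (DESeq2 called 6 genes and the likelihood ratio test 7). The median log2 fold change was 0.06 for the lysosomal genes and −0.01 for all genes, and 25 of the 33 were positive, against 48.7% of all genes. In Ly6c2-high cells 0 of 29 and 0% of 5123 genes were called, with 2 and 213 at an unadjusted p under 0.05 (DESeq2 called 0 genes and the likelihood ratio test 4). There 13 of the 29 were positive, against 50.01% of all genes, and 9 of 30 in the second split. Neither of these other tests called a lysosomal gene. In simulated data the edgeR fit of Ly6c2-high cells recovered 6% of changes of 1 on the log2 scale and 34% of changes of 2. The 0 calls in that class therefore do not show that levels were unchanged. The second split also gave 0 called lysosomal genes, against 1 gene higher in Ly6c2-high cells (0.0182%) and 1 in C1qa-high cells (0.0142%).

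In C1qa-high cells both DEP mice lay above both PBS mice for 7 lysosomal genes (14.4% of all genes did so) and below for 0 (14.1%). Acp5 had 531 and 368 CPM in DEP against 362 and 328 CPM in PBS mice, so that DEP 13 lay just above PBS 2. Its log2 fold change of 0.39 (SE 0.18) did not pass edgeR's test across all genes (FDR 1.0). Ctsf had 23.1 and 19.2 CPM against 17.5 and 16.5 CPM, and Glb1, β-galactosidase, 30.1 and 25.02 CPM against 24.7 and 18.2 CPM. Tpp1, Npc1, Gla and Ppt1 were the others, and Ppt1, for example, had 224 and 223 CPM against 220.0 and 210.3 CPM. In Ly6c2-high cells 5 lay above (Ctsa, Lamp2, Lamp1, Acp5 and Npc1; 18.4% of all genes) and 3 below (Scarb2, Cd63 and Neu1; 13.8%). Over all barcodes 2 lay above (Npc1 and Ctsf; 13.8%) and 0 below (12.8%).

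Levels varied between mice. Among the 34 genes with at least 100 UMIs in C1qa-high cells, the highest of the 4 mice exceeded the lowest by 1.03 to 2.46 times, with a median of 1.21 and the widest spread in Naglu. The tissue dissociation list summed to 128.5 and 110.3 UMIs per 10000 in DEP 11 and DEP 13 and to 169 and 144 in PBS 2 and PBS 3. Lymphoid barcodes made up 3.202% and 5.93% of barcodes in DEP mice and 2.78% and 4.87% in PBS mice. Without them, 0 lysosomal genes were called between DEP and PBS over all barcodes, in Ly6c2-high or in C1qa-high cells by edgeR, and the summed share over all barcodes was higher in DEP by 0.0454 percentage points (exact permutation p = 0.667). The part of the dissociation genes in these results was not tested.

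**Figure D4:**
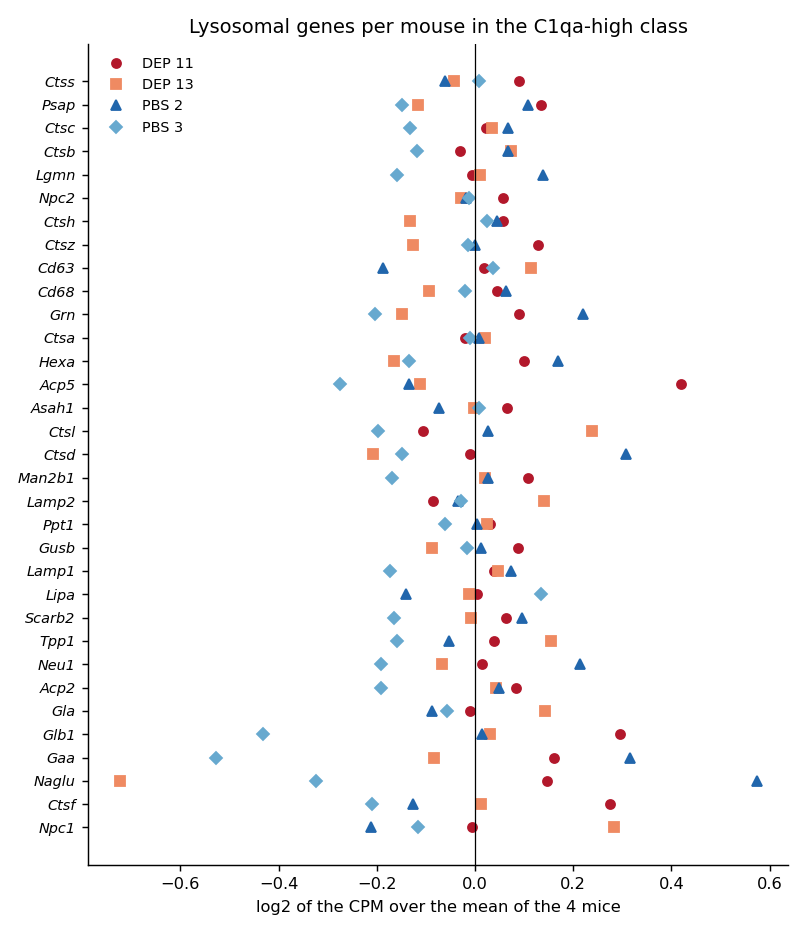
log2 of the CPM of 33 lysosomal genes in C1qa-high cells over the mean of the 4 mice (horizontal axis), 1 point per mouse, with genes ordered by abundance. Red and orange points (DEP 11 and DEP 13) and blue points (PBS 2 and PBS 3) interleave for most genes, and the point of DEP 11 for Acp5 (531 CPM) lies to the right of the other mice.

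Whether the response to DEP differed between the classes was tested by an interaction term. At the limit of 5, 0 of 33 lysosomal genes were called (0.0594% of all genes were higher and 0.0297% lower), and 2 had an unadjusted p under 0.05, Cd63 and Scarb2. In the second split Cd63 was called, with an interaction of 0.81 on the log2 scale (SE 0.16, FDR 0.037), where 0.0728% of all genes were higher and 0.0437% lower. Cd63 had 116 and 107 CPM in the Ly6c2-high cells of the second split of DEP 11 and DEP 13 and 162 and 190.4 CPM in those of PBS 2 and PBS 3. In C1qa-high cells it had 1185 and 1229 CPM against 972 and 1211 CPM. The ratio between the classes was thus 10.3 and 11.5 in DEP mice and 6.01 and 6.36 in PBS mice, with no overlap. Within a class, Cd63 was called in neither, with log2 fold changes of −0.64 (SE 0.25) and 0.15 (SE 0.17) for DEP over PBS.

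In the Ly6c2-high cells Cd63 lay below its level in barcodes under 500 UMIs of the same mouse. In those barcodes Cd63 stood at 287 and 178 CPM in DEP 11 and DEP 13 and at 427 and 402 CPM in PBS 2 and PBS 3, so that they too held less of it in both DEP mice. The Ly6c2-high cells of the second split also held less C1qa in both DEP mice. Its level there was 6.90 and 6.38 UMIs per 10000 in DEP 11 and DEP 13, and 10.3 and 9.26 in PBS 2 and PBS 3. The part of these barcodes and of the C1qa level in the interaction was not tested. Without 1 mouse, the call was lost without DEP 11 (FDR 0.092), DEP 13 (FDR 0.066) or PBS 2 (FDR 0.27) and kept without PBS 3 (FDR 0.044).

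**Figure D5:**
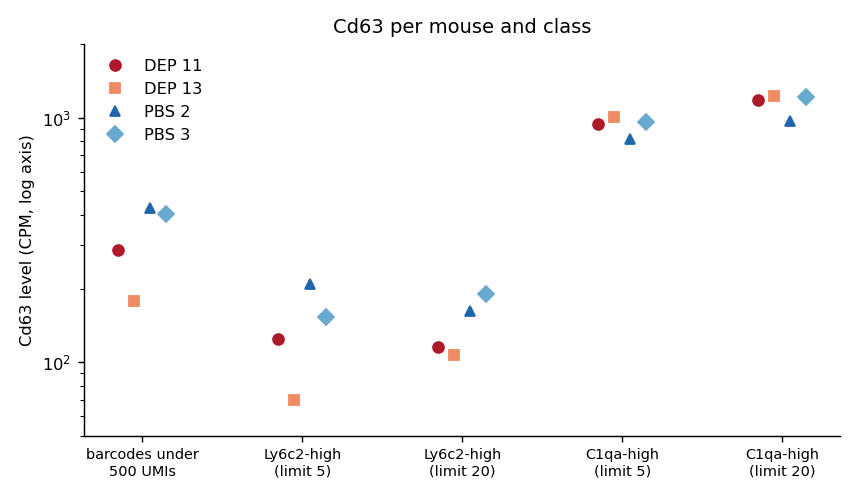
Cd63 in CPM (vertical axis, log scale) in barcodes under 500 UMIs and in Ly6c2-high and C1qa-high cells at C1qa limits of 5 and 20, the latter without lymphoid barcodes, 1 point per mouse. Both DEP mice lie below both PBS mice in barcodes under 500 UMIs and in Ly6c2-high cells, whereas C1qa-high cells of all mice lie between 819 and 1229 CPM.

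Other genes of the lysosome were read against the same shares of all genes, 7.08% higher and 5.70% lower at the limit of 5, and 16.2% and 18.3% in the second split. Of 34 further hydrolases and cofactors, 29 were tested at the limit of 5, of which 5 were higher in C1qa-high cells and 1 was lower. With the limit of 20, 9 of 30 were higher and 3 lower. Pld3, a lysosomal nuclease, was higher by 1.45 on the log2 scale (SE 0.17) in the second split. Naaa, an acid amidase, was lower by both splits (−0.76, SE 0.21, and −0.997, SE 0.11). Ifi30, the lysosomal thiol reductase, was lower in the second split only (−0.17, SE 0.06).

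In the V-ATPase list both shares were near those of all genes. Of 15 subunit genes tested among 17, 1 was higher (Atp6v0b, 0.38, SE 0.13) and 1 lower (Atp6v1b2, −0.65, SE 0.21), and in the second split 3 were higher, led by Atp6ap2 (0.72, SE 0.09), and 2 lower, Atp6v1b2 (−0.69) and Atp6v1e1 (−0.47). Of 14 regulators and sorting receptors tested among 18, 0 were called at the limit of 5 by edgeR (5 at an unadjusted p under 0.05), and in the second split 2 were higher, Rragc (0.91, SE 0.21) and Mitf (1.52, SE 0.38), and 2 lower, Lamtor4 (−0.57, SE 0.08) and Rraga (−0.70, SE 0.12). Rragc, Rraga and Lamtor4 belong to the platform on the lysosomal surface that senses amino acids, and Mitf is a relative of TFEB. Of 10 cysteine protease inhibitors, 2 were tested. Cst3, cystatin C, was lower in the second split only (−0.26, SE 0.05). In no DEP comparison was a gene of these 4 lists called.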

How the data were processed

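UMI counts per gene and barcode, not normalized, were deposited by the authors for 4 libraries of 3′ v2 single cell RNA-seq. Per the labels, reads were processed with Cell Ranger and STAR 2.6.1a on mm10. The 35 genes and the other lists were chosen with earlier results of these data known. Barcodes with at least 1000 UMIs were kept and divided by Ly6c2 and C1qa at 5 UMIs per 10000. Scrublet (scanpy 1.11.5, expected rate 6%) called 58 barcodes (1.22%) as doublets, which were kept. Lymphoid barcodes were those with at least 500 plasma cell, 10 T cell or 10 B cell marker UMIs per 10000. These cuts and the C1qa limit of 20 were chosen after the data were seen.

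Counts were summed per mouse and class and tested with edgeR 4.0.16 (R 4.3.3; TMM, quasi-likelihood, Benjamini-Hochberg FDR 5%) on genes that exceeded 1 CPM in 2 or more sums and were counted in 5% or more of the cells. SE is the log2 fold change divided by the square root of F. The mouse was the block between the classes. DEP and PBS mice share no number and were unpaired. All 35 genes were eligible to be named, and 2 genes per direction with the smallest p of each other list, of which some are not reported here. DESeq2 1.42.0 and other filters, limits and left-out mice served as alternatives. The fits were tested on simulated data, with changes of 1 and of 2 on the log2 scale put in. At an FDR of 5% the fit between the classes recovered 38% and 79% of them. For DEP against PBS these shares were 79% and 100% over all barcodes, 79% and 99% in C1qa-high cells, and 6% and 34% in Ly6c2-high cells. For the interaction they were 7% and 27%. Among barcodes of at least 1000 UMIs, 12 barcode codes occurred in more than 1 mouse. Each mouse was 1 library. The p-values for DEP against PBS rest on 2 mice per group, and those between the classes on the 2 classes within 4 mice.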

Additional observations from a re-analysis of the deposited data

Results flagged for a closer look

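Cd63 was the 1 lysosomal gene whose response to DEP differed between the classes by a test of the difference itself, an interaction of 0.81 on the log2 scale in the second split (edgeR FDR 0.037), with a class ratio of 10.3 and 11.5 in DEP and of 6.01 and 6.36 in PBS mice. At the C1qa limit of 5 its interaction was also 0.81 (SE 0.35) and was not called (FDR 1.0). Over the 4 fits to the second split without 1 mouse its FDR ranged from 0.044 to 0.27. The Ly6c2-high cells of the second split held less C1qa in both DEP mice than in both PBS mice, and the part of this in the interaction was not tested. Cd63 was already known to stand out in these data and is no independent support.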

How the results depend on the processing

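For the 19 lysosomal genes called between the classes, 23 alternatives gave 437 values, of which 400 kept the call, 37 lost it and 0 turned direction. Of the 14 not called, 7 turned direction under at least 1 alternative (Cd68, Gla, Lamp1, Lamp2, Neu1, Npc1 and Npc2). Genes called between the classes numbered 861 and came to 544 by DESeq2, 267 with limits of 2, 1835 with the limits set on thinned cells, 2272 at a C1qa limit of 20 with lymphoid barcodes and 2365 without them, 562 to 735 without 1 mouse, and, in the second split, 1925 without DEP 11, 2268 without DEP 13, 1888 without PBS 2 and 2001 without PBS 3. Called lysosomal genes fell to 9 with limits of 2. The median over the lysosomal genes tested rose from 0.53 to 0.68 without the gene filter (0.6793) or with filterByExpr (0.6787), and to 0.87 with limits of 2. It spanned 0.49 to 0.62 without 1 mouse (0.46 to 0.58 in the second split). The median of all genes, 0.11 at the limit of 5, was 0.75 without the gene filter, above the lysosomal one. It was 0.25 with filterByExpr and 0.31 with limits of 2. Without the mouse as a block, 613 genes and 15 lysosomal genes were called, losing Gusb, Man2b1, Hexa and Naglu. No paired analysis was possible between DEP and PBS because their mice share no number.

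Between DEP and PBS, where 0 genes were called, all barcodes gave 4 by DESeq2, 8 by the likelihood ratio test, 119 without the gene filter and 7 to 35 without 1 mouse. Ly6c2-high cells gave 4 by the likelihood ratio test, 12 without the filter, 4 at 2000 UMIs, 1 without lymphoid barcodes, 3 with limits of 10, 1 in the second split and 6 to 13 without 1 mouse, and the lysosomal median moved from −0.02 to 0.61 with limits of 2. C1qa-high cells gave 6 by DESeq2, 7 by the likelihood ratio test, 124 without the filter, 1 in the second split and 4 to 28 without 1 mouse. The interaction, with 6 genes called, gave 0 by DESeq2, 10 at 2000 UMIs, 2 with limits of 2, 20 with thinned limits, 10 at a C1qa limit of 20, 0 to 8 without 1 mouse and, in the second split, 28, 14, 4 and 18 without DEP 11, DEP 13, PBS 2 and PBS 3. Lysosomal genes called there numbered 1 (Cd63) with thinned limits and at the C1qa limit of 20 with or without lymphoid barcodes, and 0 to 1 without 1 mouse of the second split. Its lysosomal median of 0.01 became −0.64 with limits of 2, 0.20 with limits of 10, 0.22 at a C1qa limit of 20, 0.19 in the second split, −0.11 to 0.13 without 1 mouse and, in the second split, 0.34, 0.09, 0.12 and 0.19 without DEP 11, DEP 13, PBS 2 and PBS 3. Without 1 mouse a group held a lone mouse, assumed to vary like the others. The median of all genes moved too with limits of 2, from 0.0008 to 0.55 in Ly6c2-high cells and from −0.10 to −0.76 for the interaction. These limits left 5 and 7 Ly6c2-high cells in PBS 2 and PBS 3. For the interaction the median of all genes was 0.03 with limits of 10 and 0.02 in the second split. The cause of these shifts was not tested. The 125 Ly6c2-high cells, with 86329 to 241623 UMIs per mouse, limit all results of that class.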
